A study of Mus musculus with 12 samples.

Results

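Cytohesins are exchange factors that switch on the small GTPases of the ARF family, and they were followed here with those GTPases in 12 spleens of 2 BALB/c colonies. The members are the probe sets whose annotation names Cyth1, Cyth2, Cyth3, Cyth4, Cytip, Arf1, Arf3, Arf5 or Arf6. They came to 23 of the 45037 probe sets tested, for 9 of the 19324 genes named in the annotation, and 22 of them carry only 1 gene name. The genes were chosen by the values of Cyth1, which differ among the arrays of BALB/cByJ mice, so every value of Cyth1 that involves a BALB/cByJ array is a description and carries no test. The other 8 genes, with 20 probe sets, were taken as its relatives, its partner and its targets.

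Female mice of BALB/cJ and BALB/cByJ, sister colonies of the Jackson Laboratory, were left naïve and untreated or were immunized once, intraperitoneally, with cartilage proteoglycan (PG, 100 µg of protein) emulsified with 2 mg of the adjuvant dimethyldioctadecyl-ammonium bromide. Spleens were taken 12 days after the injection, before arthritis appears in this model, and total RNA of each spleen was hybridized to a whole-genome oligonucleotide array. There were 3 arrays in each of 4 groups (naïve BALB/cByJ, naïve BALB/cJ, immunized BALB/cByJ and immunized BALB/cJ), each from a separate animal. The sample numbers were 10 to 15 for naïve and 29 to 50 for immunized mice, so immunization and the run of sample numbers cannot be told apart. All groups share the BALB/c background, and the ages of these mice are not given in the sources used here. The question of the comparison was which genes the colonies express differently before and after the first PG injection.

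Each value below is a log2 value relative to the median of the 12 arrays for that probe set, so 0 is the median array and a difference of 1 is 2-fold. The values hold no signal level, and neither the order of the genes by level nor the presence of spleen markers could be read from them. Spleen tissue mixes many cell types, and fewer cells of a type and less RNA per cell cannot be told apart in it. Over the lists of cell markers, the arrays differed most in pigment cell genes (5 of 5 genes measured, array means -0.33 to 3.74), pancreatic acinar genes (7 of 8, 2.52 in naïve BALB/cByJ replicate 1 and at most 0.48 in the others), neutrophil genes (8 of 8, -1.11 to 1.11), heat shock genes (6 of 6, -0.42 to 1.71) and erythroid genes (10 of 11, -1.46 to 0.61). B cell, T cell and myeloid markers stayed between -0.42 and 0.26 on every array.

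In leukocytes Cyth1 binds the tail of the β2 integrin chain, through which it takes part in adhesion, and Cytip binds Cyth1 and draws it away from the membrane. Cytohesins carry a Sec7 domain, which makes an ARF release GDP and take up GTP, and a pleckstrin homology domain, which brings them to membranes rich in phosphoinositides made by PI3 kinase. Arf1, Arf3 and Arf5 act mostly at the Golgi, where they recruit vesicle coats, and Arf6 acts at the plasma membrane in endocytosis and in the remodelling of actin.

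The finding that led to this family concerns Cyth1 and a probe set that the annotation gives to both Cyth1 and Gm38514, a long non-coding RNA gene that is the next annotated gene and lies on the same strand. RefSeq promoter windows (250 bases before to 50 after a start, build GRCm38.p6) were found for 8 of the 9 members, 12 windows in all, and Arf6 had none. Cyth1 has 3 such windows and Gm38514 has 3. The most upstream window of each is shown because the 2 genes share the probe set that moved against the others. It lies at chr11:118248509-118248808 for Cyth1 and at chr11:118137726-118138025 for Gm38514, both on the minus strand, and is written 5′ to 3′ with the letters of 2 motifs in capitals, GGGCGG (the GC box) and CCAAT (the CCAAT box), each searched on both strands, so that ATTGG is a CCAAT box on the other strand.
Cyth1: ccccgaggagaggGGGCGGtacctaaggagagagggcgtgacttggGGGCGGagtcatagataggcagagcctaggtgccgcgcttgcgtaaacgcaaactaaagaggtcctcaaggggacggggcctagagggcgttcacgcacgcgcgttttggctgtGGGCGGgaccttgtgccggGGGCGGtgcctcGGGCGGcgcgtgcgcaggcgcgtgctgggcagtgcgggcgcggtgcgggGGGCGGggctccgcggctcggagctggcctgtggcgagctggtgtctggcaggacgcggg
Gm38514: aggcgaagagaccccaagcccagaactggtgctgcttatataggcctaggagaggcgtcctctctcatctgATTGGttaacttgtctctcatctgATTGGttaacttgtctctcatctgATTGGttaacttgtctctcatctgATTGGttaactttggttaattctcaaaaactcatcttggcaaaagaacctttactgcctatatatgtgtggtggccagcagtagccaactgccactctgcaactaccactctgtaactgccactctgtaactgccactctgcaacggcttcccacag

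The Cyth1 window held 6 GC boxes and no CCAAT box, and 71.3% of its bases were G or C. The Gm38514 window held 4 CCAAT boxes, all on the other strand and within copies of a repeated stretch, and no GC box, with 46.3% G or C. Of the Cyth1 windows not shown, that at chr11:118202681-118202980 held 1 GC box and no CCAAT box. The one at chr11:118212682-118212981 held 1 CCAAT box and no GC box. The Gm38514 windows not shown held neither motif, so the contrast holds for the most upstream windows only. Of 32851 RefSeq windows of this length, 35.7% held a GC box and 1.35% held 6 or more, while 37.4% held a CCAAT box and 1.06% held 4 or more. Among the 12 windows of the members, 9 held a GC box and 2 held a CCAAT box. The windows of Arf1 overlap and hold the same 3 GC boxes, and those of Arf3 overlap and share 1, so the windows are not all separate. These are matches of letters, and the arrays measured no binding.

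Cyth1 was the member with by far the widest range. In probe set 1418183_a_at the naïve BALB/cByJ arrays were at -5.51, 0.02 and -4.19 for replicates 1, 2 and 3, and the immunized BALB/cByJ arrays were at -5.34, -4.85 and -4.85. The naïve BALB/cJ arrays were at 0.18, 0.27 and 0.22, and the immunized BALB/cJ arrays at -0.02, 0.18 and 0.36. Thus 5 of the 6 BALB/cByJ arrays lay far below all 6 BALB/cJ arrays, and naïve BALB/cByJ replicate 2 lay among the BALB/cJ arrays. The step from replicate 2 to replicate 1 of the same group was 5.53 (46.2-fold) and that to replicate 3 was 4.21 (18.5-fold).

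**Figure D1:**
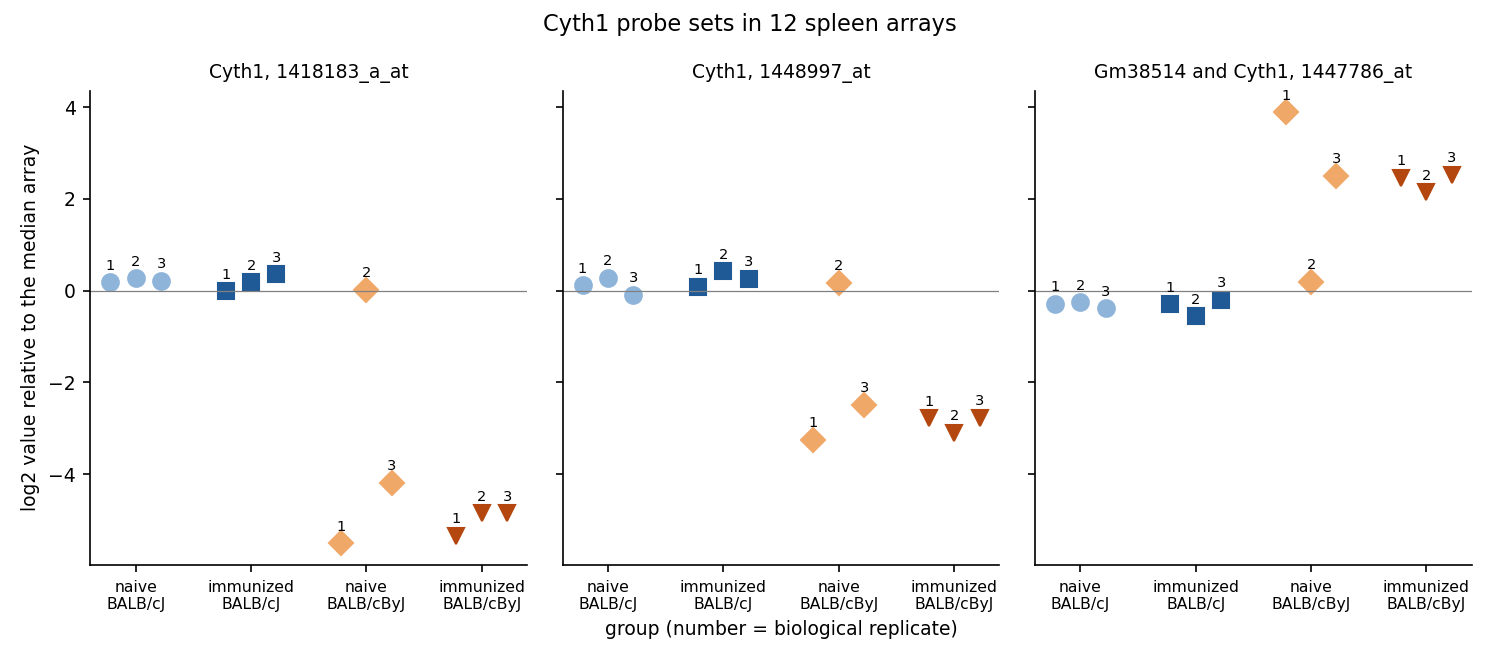
Values of the 3 probe sets annotated to Cyth1 on each of the 12 arrays (vertical axis, log2 relative to the median array; horizontal axis, group, with the replicate number above each point). In all 3 panels naïve BALB/cByJ replicate 2 lies within 0.2 of the median array, while the other 5 BALB/cByJ arrays lie at least 2.15 away from it.

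The second probe set of Cyth1 alone, 1448997_at, split the arrays in the same way. Naïve BALB/cByJ arrays were at -3.25, 0.17 and -2.48, immunized BALB/cByJ arrays at -2.78, -3.10 and -2.77, naïve BALB/cJ arrays at 0.12, 0.28 and -0.09, and immunized BALB/cJ arrays at 0.09, 0.43 and 0.26. Again 5 BALB/cByJ arrays were low and replicate 2 of the naïve group was not. Its steps to replicates 1 and 3 were 3.42 (10.7-fold) and 2.65 (6.28-fold).

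Probe set 1447786_at, which the annotation gives to Gm38514 and Cyth1 together, ran the other way. Naïve BALB/cByJ replicates 1, 2 and 3 gave 3.89, 0.20 and 2.50, and the other groups followed with 2.46, 2.15 and 2.53 in immunized BALB/cByJ, -0.28, -0.25 and -0.38 in naïve BALB/cJ, and -0.30, -0.56 and -0.20 in immunized BALB/cJ. The 5 BALB/cByJ arrays that were low for Cyth1 were high here, and naïve BALB/cByJ replicate 2 stood between them and the BALB/cJ arrays, of which the highest was at -0.20. The steps from replicate 2 to replicates 1 and 3 were 3.69 (12.9-fold) and 2.30 (4.93-fold).

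Over the 12 arrays, which fall into separate clusters, 1448997_at correlated with 1418183_a_at at r = 0.99 and 1447786_at at r = -0.97. Within the 6 BALB/cByJ arrays the correlations were 0.99 and -0.90. There naïve replicate 2 lies far from the rest (0.02 against -5.51 to -4.19 in 1418183_a_at). These 2 figures mostly reflect that array and do not show that the other BALB/cByJ arrays track each other. Within the 6 BALB/cJ arrays, where the values hardly differ, the correlations were 0.27 and 0.29. The points share their array, and these figures are descriptions. The SD of 1418183_a_at over the 12 arrays was 2.66, and only 1 of the 45037 probe sets had a larger SD. By range it stood in place 5, with 5.87 against 8.28 for the widest. The median SD of all probe sets was 0.138, which the 20 probe sets of the other members matched at 0.138 (0.0685 to 0.380).

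Averaged by group, the Cyth1 difference between the naïve colonies depended on which BALB/cByJ arrays entered. In naïve mice, BALB/cByJ minus BALB/cJ was -3.45 for 1418183_a_at, -1.96 for 1448997_at and 2.50 for 1447786_at. Without naïve BALB/cByJ replicate 2 the same differences were -5.07, -2.97 and 3.50, without replicate 1 they were -2.31, -1.26 and 1.65, and without replicate 3 they were -2.97, -1.65 and 2.35. In immunized mice, where no array stood apart, they were -5.19 (36.5-fold lower in BALB/cByJ), -3.14 (8.84-fold lower) and 2.73 (6.65-fold higher). After a further quantile normalization of the deposited values the differences in immunized mice were -3.68, -2.76 and 3.71, in the same directions with other sizes. The deposited values were already quantile normalized and then centred by probe set. The further step forces arrays whose values have SDs of 0.130 to 0.265 to 1 distribution, which can itself change the size of extreme values. The standard error shared by the 4 groups was 0.951, 0.598 and 0.619 with all 12 arrays and 0.264, 0.181 and 0.266 without replicate 2.

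Whether the array with high Cyth1 carried its colony's expression elsewhere was read from other genes. There were 28 probe sets, none of them of Cyth1, that differed over 2-fold between the immunized colonies and passed the test there. The fit behind that test included the naïve arrays, whose spread enters the shared standard error. A probe set on which a naïve array departs from its group was therefore less likely to pass, and Cyth1 itself did not. At 27 of these 28, naïve BALB/cByJ replicate 2 lay nearer to the mean of immunized BALB/cByJ than to that of immunized BALB/cJ, as did replicates 1 and 3. The exception was the same for the 3 arrays, 1420577_at, which has no gene name here. The naïve BALB/cJ arrays were nearer to BALB/cByJ at 0 of the 28. Over all 54 probe sets called between the immunized colonies, the naïve BALB/cByJ arrays were on their own colony's side at 47, 46 and 48, and the naïve BALB/cJ arrays were on the other colony's side at 0, 0 and 1. The choice of probe sets favoured such counts, which describe the chosen probe sets only. How often naïve BALB/cByJ replicate 2 departs from its colony at other probe sets was not tested.

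An example is Arl2bp, a protein that binds the ARF-like GTPase Arl2. In probe set 1417112_at its level was at -1.19, -1.36 and -1.36 in naïve BALB/cByJ and at -1.70, -1.54 and -1.76 in immunized BALB/cByJ. It was at 1.40, 1.50 and 1.41 in naïve BALB/cJ and at 1.23, 1.26 and 1.19 in immunized BALB/cJ. It followed the colony label on all 12 arrays, naïve BALB/cByJ replicate 2 included. What sets the Cyth1 value of this array was not tested.

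**Figure D2:**
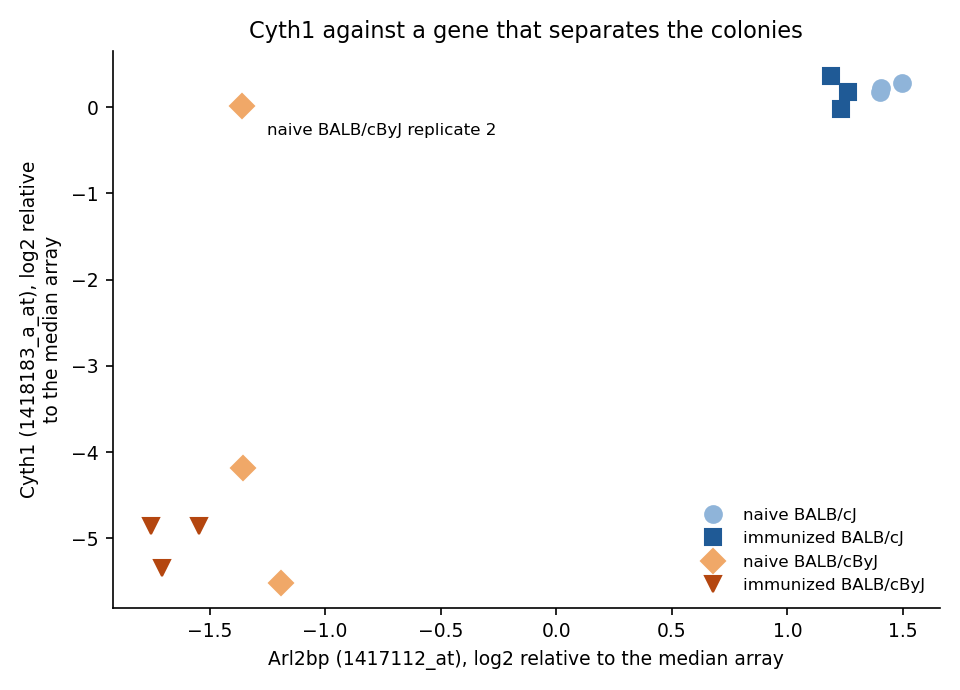
Cyth1 (1418183_a_at, vertical axis) against Arl2bp (1417112_at, horizontal axis), both as log2 values relative to the median array, for the 12 arrays. Naïve BALB/cByJ replicate 2 has the Arl2bp value of BALB/cByJ (-1.36) and a Cyth1 value (0.02) inside the range of BALB/cJ.

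The probe sets most like 1418183_a_at were picked by their Pearson r over the 12 arrays, among probe sets with 1 gene name. The highest were of Ptgr2, a prostaglandin reductase (r = 0.953), Golm2 (0.935), Bean1 (0.903), the nicotinic receptor subunit Chrna7 (0.896) and Cgref1 (0.894). The lowest were of Psmd13, a proteasome subunit (-0.937), Pfas, an enzyme of purine synthesis (-0.932), Phf5a, a splicing factor subunit (-0.924), Rexo4 (-0.915) and the non-coding RNA host gene Snhg1 (-0.914). Their own ranges were 0.309 (Psmd13) to 1.98 (Golm2), against 5.87 for Cyth1. Ptgr2 (1459291_at) was at -0.63, 0.26 and -0.36 in naïve BALB/cByJ, -0.96, -0.66 and -0.61 in immunized BALB/cByJ, 0.12, 0.11 and -0.03 in naïve BALB/cJ and 0.06, 0.03 and 0.09 in immunized BALB/cJ, a pattern that its choice by likeness to Cyth1 fixes. Golm2 (1440248_at) was at -1.31, -0.34 and -1.11 in naïve BALB/cByJ, at -0.94, -0.85 and -0.91 in immunized BALB/cByJ and at 0.34 or above on every BALB/cJ array. There replicate 2 was below 0 like its colony, but lay between the other BALB/cByJ arrays and the BALB/cJ arrays.

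Genes beside Cyth1 spanned narrower ranges. The 5 annotated genes on each side that have probe sets were Birc5, Tha1, Socs3, Pgs1 and Dnah17 before it and Usp36, Timp2, Cep295nl, Lgals3bp and Cant1 after it, with 24 probe sets. Their ranges over the 12 arrays were 0.257 to 2.08, and 1.14 was the widest without Birc5. Of the 24, 2 were called in naïve mice by limma, against 4.39% of all probe sets, and 0 in immunized mice. Birc5 (1424278_a_at), which encodes survivin, a protein of dividing cells, was higher in naïve BALB/cByJ by 1.53 (SE 0.295, adjusted p = 0.0157). Timp2, an inhibitor of metalloproteinases, was lower in 1454677_at (log2 difference -0.37, SE 0.0967, adjusted p = 0.0497). The other Timp2 probe sets were not called (limma adjusted p of 0.0660 or above), and 1437081_at went the other way (0.10). Birc5 was at 0.46, 0.31 and 0.70 in naïve BALB/cByJ and at -1.36, -1.38 and -0.39 in naïve BALB/cJ, where the mean of the cell division markers (6 of 7 genes measured) was at 0.36, 0.28 and 0.51 and at -0.95, -1.05 and -0.39, and the erythroid mean at 0.12, 0.41 and 0.61 and at -1.22, -1.46 and -0.31. The part of these markers in the Birc5 values was not tested. On naïve BALB/cByJ replicate 2 Birc5 and Timp2 1454677_at were at 0.31 and -0.12, on the side of replicates 1 and 3 for both.

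Immunization did not move Cyth1 detectably in BALB/cJ, where the choice of the genes used no array. In the fit to the 6 BALB/cJ arrays, immunized minus naïve was -0.05 for 1418183_a_at (95% confidence interval -0.28 to 0.18, limma adjusted p = 0.892) and 0.15 for 1448997_at (-0.12 to 0.43, adjusted p = 0.669). For 1447786_at, shared with Gm38514, it was -0.05 (-0.29 to 0.18, adjusted p = 0.891). These intervals are narrow beside the steps among the BALB/cByJ arrays.

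The other cytohesins stayed within narrow ranges. Cyth2, the widely expressed cytohesin also called ARNO, had the smallest spread of all the members, with values from -0.14 to 0.06 on the 12 arrays (1450103_a_at). Cyth4, a cytohesin found mainly in blood cells, was at 0.25, -0.11 and 0.00 in naïve BALB/cByJ, 0.16, 0.00 and -0.07 in naïve BALB/cJ, -0.07, 0.09 and 0.06 in immunized BALB/cByJ and 0.00, -0.24 and -0.08 in immunized BALB/cJ (1460437_at). All 4 of its groups overlapped, and its colony difference was 0.02 in naïve mice (95% confidence interval -0.21 to 0.24) and 0.13 in immunized mice (-0.10 to 0.36).

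Cyth3, also called GRP1, which binds the PI3 kinase product PIP3, had 2 probe sets. In 1418758_a_at the naïve BALB/cByJ arrays were at -0.14, 0.06 and 0.22 and the naïve BALB/cJ arrays at -0.17, -0.40 and -0.30. Immunized BALB/cByJ arrays were at 0.01, 0.14 and 0.25 and immunized BALB/cJ arrays at 0.04, -0.01 and -0.27. The naïve groups did not overlap, though replicate 1 of each lay close to the other, and the difference of 0.34 (SE 0.113) did not pass the test (limma adjusted p = 0.120). In immunized mice the groups overlapped and the difference was 0.21 (adjusted p = 0.673). With array weights the naïve difference was 0.44 and passed (adjusted p = 0.0109), as it did without the 4 arrays high in pancreatic or heat shock genes, at 0.43 (adjusted p = 0.0364). Over all probe sets these settings raised the calls from 1976 to 5950 and 3065. The second probe set, 1431707_a_at, was at -0.32, 0.05 and 0.19 in naïve BALB/cByJ and at -0.14, -0.15 and -0.14 in naïve BALB/cJ, and the groups overlapped with a difference of 0.12 (adjusted p = 0.682).

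Cytip, the partner of the cytohesins in leukocytes, had 3 probe sets that were lower in each naïve BALB/cByJ array than in each naïve BALB/cJ array without passing the test. Of all probe sets, 21.7% did not overlap between the naïve colonies. For 1451206_s_at the values were -0.14, -0.07 and -0.23 against 0.23, 0.09 and -0.02, a difference of -0.24 (SE 0.115, limma adjusted p = 0.278). For 1435697_a_at they were -0.06, -0.07 and -0.26 against 0.10, 0.06 and -0.03, a difference of -0.17 (adjusted p = 0.431). For 1443928_at they were 0.01, -0.01 and -0.06 against 0.19, 0.16 and 0.07, a difference of -0.16 (adjusted p = 0.464). The probe sets measure 1 gene on the same arrays and are not separate evidence. In immunized mice all 3 overlapped between the colonies, with differences of -0.04, 0.01 and 0.05, and their values were between -0.21 and 0.27. The mean of the T cell markers (7 of 9 genes measured) was at -0.27 to -0.06 in naïve BALB/cByJ and at -0.06 to 0.11 in naïve BALB/cJ, and that of the B cell markers (7 of 8) at -0.16 to -0.03 and 0.04 to 0.20, and their part in the Cytip values was not tested.

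**Figure D3:**
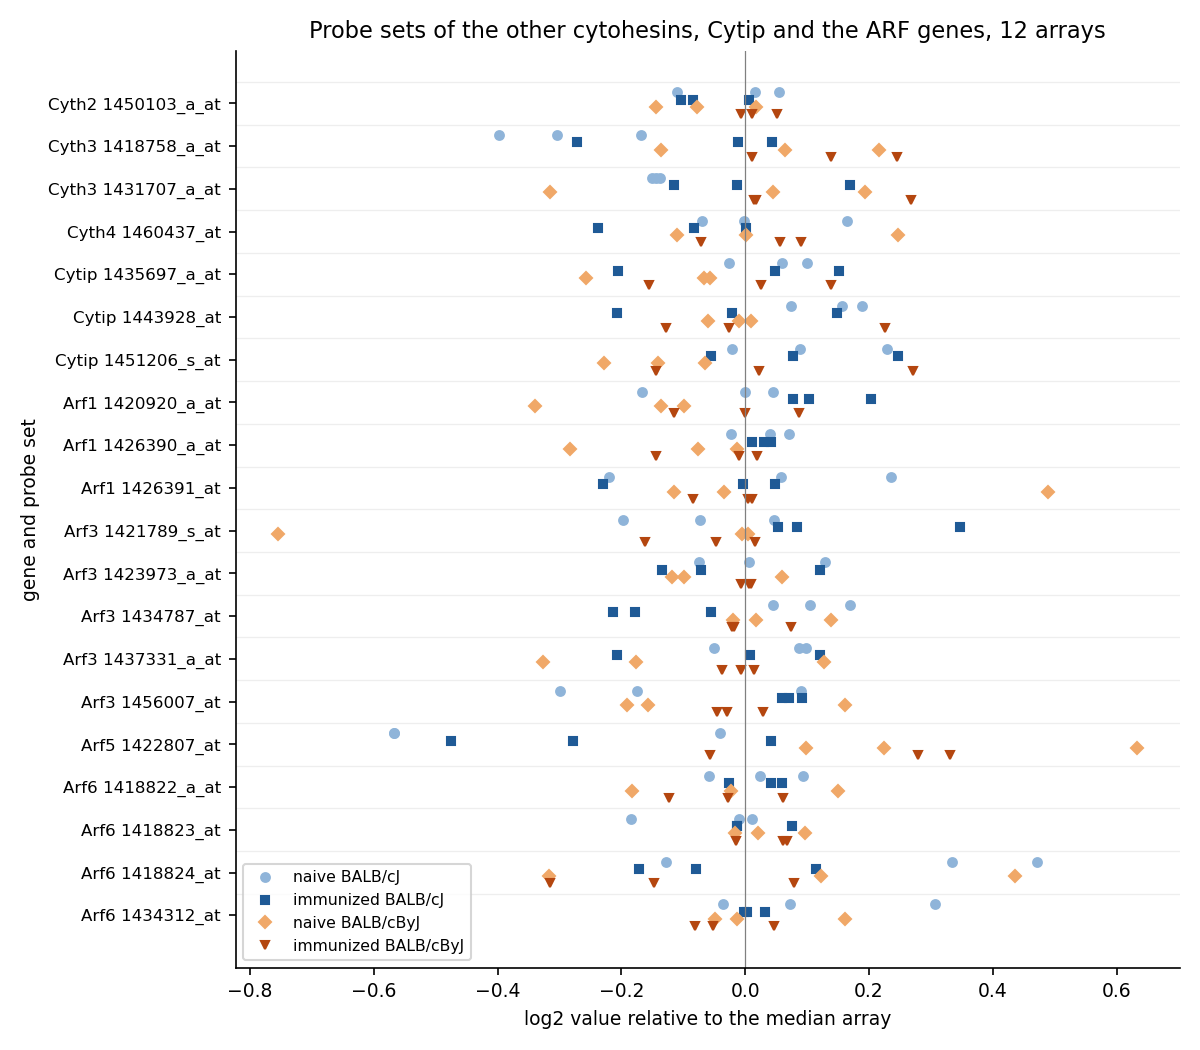
Values of the 20 member probe sets other than those of Cyth1 (horizontal axis, log2 relative to the median array) for each gene and probe set (vertical axis), with 1 symbol per array and the group shown by its shape and colour. The values lie between -0.75 and 0.63, with the widest range for Arf5, in which the 3 naïve BALB/cByJ arrays lie to the right of the 3 naïve BALB/cJ arrays.

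Arf1 and Arf3, which recruit coats to the Golgi, had 3 and 5 probe sets, and none passed the test in any comparison. In 1420920_a_at Arf1 was at -0.34, -0.10 and -0.14 in naïve BALB/cByJ, 0.05, 0.00 and -0.17 in naïve BALB/cJ, 0.09, -0.11 and 0.00 in immunized BALB/cByJ and 0.10, 0.20 and 0.08 in immunized BALB/cJ. Immunized BALB/cJ lay above naïve BALB/cJ without overlap, by 0.17 (95% confidence interval -0.03 to 0.37, limma adjusted p = 0.611). The other probe sets of Arf1, 1426390_a_at (-0.28 to 0.07 over the 12 arrays) and 1426391_at (-0.23 to 0.49), gave 0.00 and -0.09 for the same difference, with overlap. Between the naïve colonies the 3 gave -0.15, -0.15 and 0.09 (limma adjusted p of 0.352 or above).

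Arf3 had the smallest p of the 20 probe sets for immunization in BALB/cJ. In 1434787_at it was at 0.05, 0.17 and 0.11 in naïve BALB/cJ and at -0.21, -0.18 and -0.05 in immunized BALB/cJ. The naïve BALB/cByJ arrays were at 0.14, 0.02 and -0.02 and the immunized ones at -0.02, 0.07 and -0.02. The BALB/cJ groups did not overlap, and the difference of -0.26 (SE 0.0762, unadjusted p = 0.00551) did not pass after adjustment in limma (adjusted p = 0.378). In BALB/cByJ it was -0.03 (95% confidence interval -0.20 to 0.13), and the difference between the 2 responses was 0.22 (-0.01 to 0.46, adjusted p = 0.674). With array weights the difference in BALB/cJ was -0.29 and passed (adjusted p = 0.0475), in a fit that took the calls over all probe sets from 0 to 651. The other 4 probe sets of Arf3 differ from it in sign or size, with -0.05 for 1423973_a_at, -0.07 for 1437331_a_at, 0.20 for 1456007_at and 0.24 for 1421789_s_at. Over the 12 arrays they spanned -0.13 to 0.13, -0.33 to 0.13, -0.30 to 0.16 and -0.75 to 0.35. The lowest single value among the 20 probe sets, -0.75, was that of Arf3 1421789_s_at on naïve BALB/cByJ replicate 1, the array highest in pancreatic acinar genes. The suffix of that name marks probes that can match more than 1 gene.

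Arf6, the plasma membrane ARF that cytohesins act on, had 4 probe sets and no difference that passed. It was between -0.18 and 0.10 in 1418823_at, between -0.18 and 0.15 in 1418822_a_at and between -0.08 and 0.31 in 1434312_at on all 12 arrays. Its widest probe set, 1418824_at, was at -0.32, 0.12 and 0.44 in naïve BALB/cByJ, 0.33, 0.47 and -0.13 in naïve BALB/cJ, -0.15, -0.32 and 0.08 in immunized BALB/cByJ and -0.08, 0.12 and -0.17 in immunized BALB/cJ. All its groups overlapped. Over the 4 probe sets, the colony differences were -0.15 to 0.10 in naïve mice and -0.08 to 0.02 in immunized mice.

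Arf5, an ARF of the early secretory pathway, was the only gene other than Cyth1 with a called probe set in the 12-array limma fit. In 1422807_at the naïve BALB/cByJ arrays were at 0.10, 0.22 and 0.63 and the naïve BALB/cJ arrays at -0.57, -0.57 and -0.04. Immunized BALB/cByJ arrays were at -0.06, 0.28 and 0.33 and immunized BALB/cJ arrays at -0.28, 0.04 and -0.48. The naïve groups did not overlap, and BALB/cByJ was higher by 0.71 (SE 0.184, 95% confidence interval 0.31 to 1.11, 1.64-fold, adjusted p = 0.0487). In immunized mice the groups overlapped and the difference was 0.42 (95% confidence interval 0.02 to 0.82), which did not pass (adjusted p = 0.614). Immunized minus naïve was 0.16 in BALB/cJ (-0.24 to 0.55) and -0.13 in BALB/cByJ (-0.53 to 0.26), and the responses differed by -0.29 (-0.85 to 0.28, adjusted p = 0.835).

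The Arf5 call in naïve mice lay just past the threshold. It was lost when any of 8 arrays was left out, namely naïve BALB/cByJ replicate 2 (adjusted p = 0.0795) or 3 (0.192), naïve BALB/cJ replicate 1 (0.197) or 2 (0.201), immunized BALB/cByJ replicate 1 (0.0504), 2 (0.0689) or 3 (0.0550), or immunized BALB/cJ replicate 1 (0.0619). The difference stayed between 0.55 and 0.89 in all 12 of these fits. The mean of the erythroid markers was 0.12, 0.41 and 0.61 in naïve BALB/cByJ, -1.22, -1.46 and -0.31 in naïve BALB/cJ, -0.09, 0.09 and 0.47 in immunized BALB/cByJ and -0.08, 0.24 and -0.96 in immunized BALB/cJ. The 3 arrays with the lowest erythroid means were also the 3 with the lowest Arf5. With the erythroid mean as a covariate the naïve difference of Arf5 was 0.03 (SE 0.168, adjusted p = 0.976), and over all probe sets the calls between the naïve colonies went from 1976 to 26. The erythroid means of the naïve colonies did not overlap, so colony and erythroid mean cannot be told apart in naïve mice. The part of these markers in the Arf5 values was not tested.

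**Figure D4:**
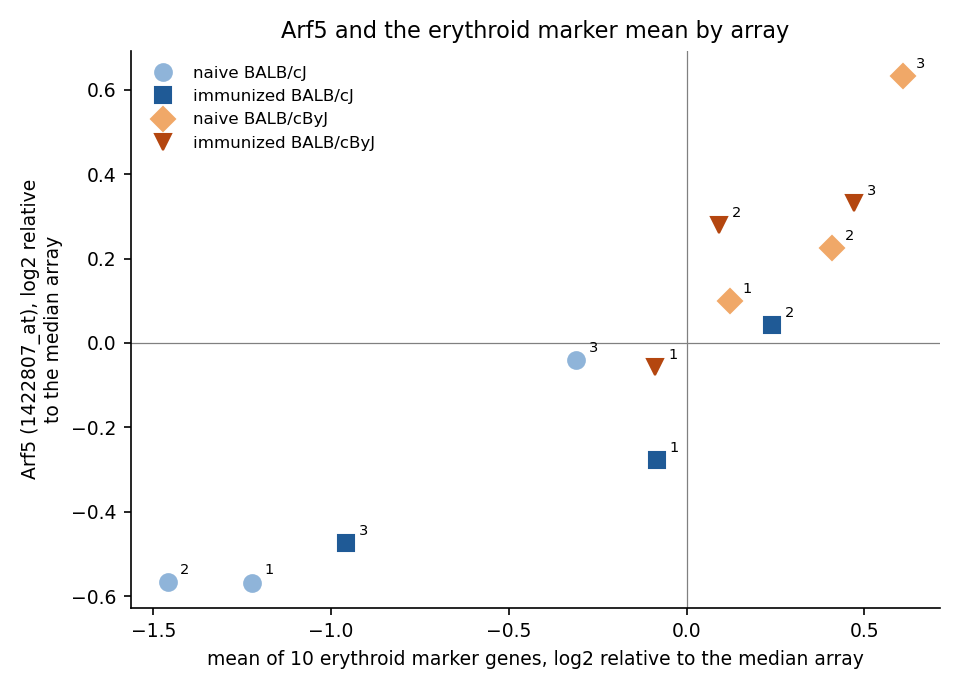
Arf5 (1422807_at, vertical axis) against the mean of the 10 erythroid marker genes measured (horizontal axis), both as log2 values relative to the median array, with the group shown by symbol and the replicate number beside each of the 12 points. The arrays run from naïve BALB/cJ replicates 1 and 2 (Arf5 at -0.57, erythroid means of -1.22 and -1.46) to naïve BALB/cByJ replicate 3 (0.63 and 0.61).

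Over the whole family, 2 of the 23 probe sets were called between the naïve colonies, where 4.39% of all probe sets were called (2.68% higher and 1.71% lower in BALB/cByJ). That background of 1976 calls was 161 without naïve BALB/cJ replicate 2, 232 without its replicate 1 and 265 without naïve BALB/cByJ replicate 3. The 2 probe sets were Arf5 and 1447786_at. Both were higher in BALB/cByJ, and the second, shared by Gm38514 and Cyth1, took part in the choice of the genes, so that 1 of 20 is the count without Cyth1. Between the immunized colonies 0 of 23 were called in the 12-array fit, against 0.12% of all (0.0755% higher and 0.0444% lower), and 1 of the 20 had an unadjusted p under 0.05. For immunization 0 of 23 were called in BALB/cJ, against 0%, and 0 of 23 in BALB/cByJ, against 0.0511% (0.0488% higher and 0.00222% lower), with 1 and 0 of the 20 at an unadjusted p under 0.05. For the difference of the responses 0 of 23 were called, against 0%, and 0 of the 20 had an unadjusted p under 0.05.

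The 3 Cyth1 probe sets were not among the calls of the 12-array fit in immunized mice, in spite of their differences of 2.73 or more in size, because the spread of naïve BALB/cByJ enters the shared standard error. That standard error was 0.153, 0.120 and 0.129 for 1418183_a_at, 1448997_at and 1447786_at when the immunized arrays were fitted alone. No test is drawn from this, since these arrays took part in the choice.

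Among the 20 probe sets without Cyth1, the groups did not overlap in 5 between the naïve colonies, 3 of them of Cytip, where 21.7% of all probe sets did not. Between the immunized colonies they did not overlap in 3 (15% of all). All 3 were of Arf3 and differed in sign, with -0.23 for 1421789_s_at, 0.16 for 1434787_at and -0.09 for 1456007_at. The groups did not overlap in 4 for immunization in BALB/cJ (17% of all) and in 0 for immunization in BALB/cByJ (12.1% of all). The median difference of the 20 was -0.07 between the naïve colonies against -0.01 for all probe sets, with 13 below 0 and 7 above. It was 0.02 between the immunized colonies, -0.03 for immunization in BALB/cJ and 0.05 in BALB/cByJ, against -0.01, 0.00 and 0.00 for all. Apart from Arf5, the largest difference between the naïve colonies was 0.34 in size and that between the immunized colonies was 0.23. The 95% confidence intervals of all 20 reached no lower than -0.60 and no higher than 0.82 in immunized mice.

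**Figure D5:**
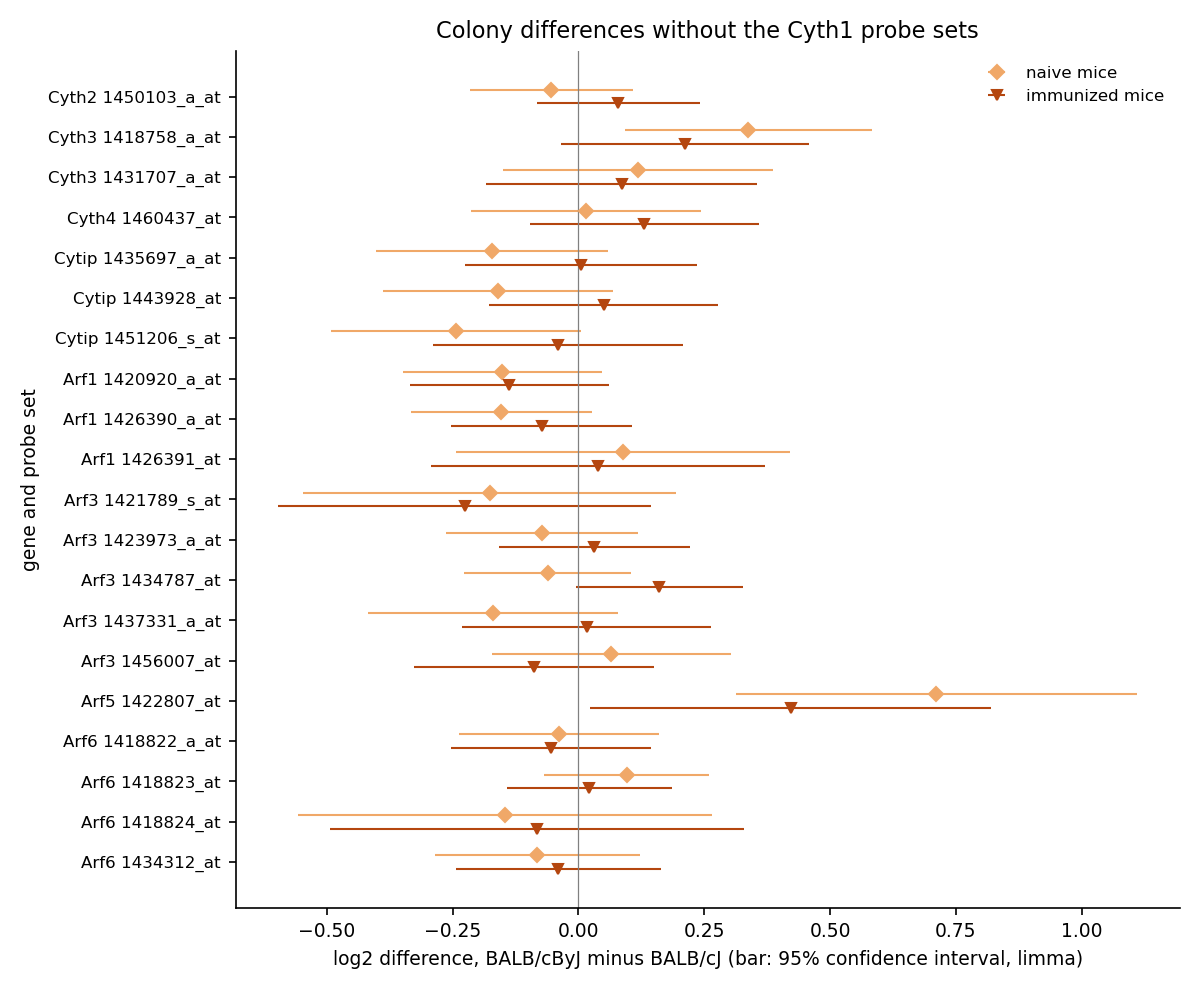
Colony difference (BALB/cByJ minus BALB/cJ, horizontal axis, log2) of each of the 20 member probe sets other than those of Cyth1 (vertical axis), in naïve mice (diamonds) and immunized mice (triangles), with bars for the 95% confidence interval of the limma fit. The intervals of Arf5 and of Cyth3 1418758_a_at lie above 0 in naïve mice and that of Arf5 does in immunized mice, and after adjustment Arf5 in naïve mice is the 1 called among the 20.

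The rest of the ARF cycle was read from 5 lists. Of the other ARF and ARF-like GTPases, 11 of 19 genes had a named probe set (27 probe sets), and Arl4a, Arl4c, Arl4d, Arl5a, Arl5b, Arl6, Arl8a and Arl8b are not analysed here. All 11 other Sec7 exchange factors (23 probe sets) and 17 of 18 cytohesin partners and genes of the PIP3 pathway (42 probe sets) were measured. None of these 3 lists held a call in any comparison. Of all probe sets, 4.39% were called when naïve mice were compared. In every other comparison that share was 0.12% or less, so the absence of calls there says little about these lists. The medians of the 3 lists between the naïve colonies were -0.09, -0.09 and -0.09 against -0.01 for all probe sets.

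The GTPase-activating proteins, which end the ARF signal, held 3 calls among 55 probe sets of 23 genes between the naïve colonies (5.45%, against 4.39% of all), each higher in BALB/cByJ. Agfg2, which carries an ARF GTPase-activating domain, was higher by 0.86 in 1425362_at (SE 0.161, limma adjusted p = 0.0143), with 0.87, 0.35 and 0.59 in naïve BALB/cByJ and -0.32, -0.41 and -0.03 in naïve BALB/cJ. Smap1, an activating protein for Arf6 in clathrin-dependent endocytosis, was higher by 0.51 (SE 0.109, adjusted p = 0.0235), with 0.11, 0.26 and 0.19 against -0.33, -0.45 and -0.18. The third call was a second probe set of Agfg2. The effectors and coats held 3 calls among 56 probe sets of 26 genes (5.36%), 2 higher, both of Pip5k1b, and 1 lower. Pip5k1b, a kinase that makes a membrane phosphoinositide, was higher by 1.39 in 1450389_s_at (SE 0.282, adjusted p = 0.0194), with 0.45, 0.24 and 0.78 against -0.93, -1.23 and -0.56, and Pld1, the ARF-stimulated phospholipase D, was lower (log2 difference -0.55, SE 0.132, adjusted p = 0.0367), with -0.48, 0.00 and -0.45 against 0.23, 0.39 and 0.08. None of the 6 was called in another comparison. With the erythroid mean as a covariate, where 26 of the 45037 probe sets passed in all, none of the 6 did, and the differences named here were 0.44, 0.14, 0.33 and -0.34 (adjusted p = 0.674, 0.790, 0.766 and 0.708). The part of the erythroid markers in these differences was not tested.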

How the data were processed

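Spleen RNA of 12 mice was measured on oligonucleotide arrays, 3 per group. The deposited log2 values are the authors' robust multi-array averages, quantile normalized and summarized by median polish in GeneSpring, with the median of the 12 arrays set to 0 in every probe set. The base of the log is not stated and was read as 2. Of 45101 probe sets, 64 were controls and left out, and no filter was applied. Gene names came from the platform annotation. limma 3.58.1 in R 4.3.3 fitted a mean per group over all 12 arrays (lmFit, eBayes), and p was adjusted after Benjamini and Hochberg over the 45037 probe sets, with a call at an adjusted p under 0.05. The Cyth1 test of immunization used the 6 BALB/cJ arrays alone. The number of arrays limits the precision, and 0 columns belonged to other samples.

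The members and lists were chosen with earlier results of these data known. The text names every member probe set, up to 2 called probe sets per list and contrast by the smallest p, the 5 genes on each side of Cyth1 and the 5 highest and 5 lowest correlations with it. Arl2bp was singled out after its values were seen. The methods' one-way analysis of variance with Student-Newman-Keuls comparisons was an alternative, and the closing section gives the others. Gene order and promoter windows came from RefSeq (GRCm38.p6). The model was first tested on simulated data. Python 3.11.15, pandas 2.3.3 and matplotlib 3.10.9 made the figures and sequence tables.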

Additional observations from a re-analysis of the deposited data

How the results depend on the processing

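The count of member probe sets called between the naïve colonies (2, of which 1 without Cyth1) was 0 after quantile normalization, with the compared groups alone, with the run of sample numbers as a block, with the erythroid mean as a covariate, without the 4 arrays high in pigment cell genes and by the methods' analysis of variance. It was 1 with a trended and robust variance and 1 at the level of genes, and 0 to 3 when each array was left out in turn. Over all 45037 probe sets the calls, 1976 at first, were 1309, 1262, 1973, 26, 15 and 67 in the settings that gave 0, in that order, and 161 to 2470 with single arrays left out. Between the immunized colonies the count (0) was 3 after quantile normalization and with the compared groups alone, 2 with array weights, and 0 to 3 when each array was left out, with 3 without naïve BALB/cByJ replicate 1 and 3 without replicate 2. All of these were Cyth1 probe sets, for which they are descriptions, and without Cyth1 the count was 0 in each. For immunization in BALB/cJ it was 1 with array weights (Arf3). The counts for immunization in BALB/cByJ and for the difference of responses were 0 under every alternative run. The naïve difference of Arf5 lost its call in 6 of the 12 other alternatives, at 0.57 after quantile normalization (adjusted p = 0.0810), with adjusted p = 0.0804 for the compared groups alone, 0.0554 with the run block and 0.273 by the analysis of variance, and at 0.36 (adjusted p = 0.996) without the 4 pigment arrays, which leaves naïve BALB/cJ with 1 array. Array weights gave a naïve Cyth1 difference of -2.14 in 1418183_a_at, and quantile normalization one of -2.55. The deviations of same-numbered arrays correlated at -0.29 to 0.37 (18 pairs, median 0.103), and those of differently numbered arrays at -0.42 to 0.52 (36 pairs, median -0.0451). By mean correlation, 7 of 12 arrays were closest to their own number. The labels state no pairing, and the main fit used none. With the replicate number as a block the naïve count was 3 and the others 0. Filters on dim probe sets, another background correction and slide or scan blocks were not run, since the values hold no signal. Depth cannot be given for arrays.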
